A study of Corbicula fluminea with 24 samples.

Results

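The transcripts described here carry the names of enzymes that break down starch, plant cell wall, sugars, fat and peptides, measured in digestive glands of Corbicula fluminea, the Asian clam, a freshwater filter feeder. They are the 6 contigs named Amy.1.2, GUN, MANA, BGAL, LIPA and CBPQ in the deposited count table, together with the only other contig that shares a symbol with one of them, Amy.2.2, which makes 7 of 58291 contigs. All 7 passed the filter on low counts. The 6 names were picked because earlier work on the same counts showed them to vary widely and together between clams, so their range and their co-variation are given as a description, without a test, whereas Amy.2.2 was taken for its name alone. Clams were held in cages over the winter, December to March, at 3 places, downstream of a wastewater treatment plant (WWTP), downstream of an urban runoff effluent (runoff) and at a reference site, with 8 individuals each and 1 RNA-seq library per individual. Each site was 1 caging as far as the labels say, so site and cage cannot be told apart, and p-values measure the spread between clams. The sources used here give no genotype, sex or age.

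In bivalves the digestive gland is a branched system of blind tubules whose cells secrete enzymes and take up food particles for digestion inside the cell. Filter feeders that live on algae and plant debris need amylases and cellulases as well as lipases and peptidases, and bivalves carry cellulase genes of their own. The amount of digestive enzyme in the gland is known to change with feeding state and season. The roles below are those of the genes of these names in other animals, because the table pairs its contig names with no description, source species or sequence. Some names are ambiguous. GUN and MANA are also the entry names of an endoglucanase and an endo-mannanase of the blue mussel Mytilus edulis, while the same letters as MANA and LIPA are used in bacteria for an isomerase and a lipoyl synthase.

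Libraries held 40.4 M to 97.7 M counts (WWTP 40.4 M to 78.8 M, runoff 46.1 M to 97.7 M, reference 60.1 M to 85.1 M), and lanes 3 and 4 each held 4 libraries of every site. Values are given in CPM, counts relative to the library size after TMM scaling, which corrects for transcripts that dominate a library. The scaling factor ran from 0.755 to 1.28 and was itself lower in clams with more of these enzymes (r = -0.85 over 24 clams with the mean standardized level of the 6 names). Contig lengths are not given, so levels are compared between clams for 1 contig and never between contigs. A bulk gland sample cannot separate fewer enzyme-making cells from less enzyme RNA per cell.

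Among the carbohydrases, Amy.1.2 is an amylase, which cuts starch. It ranged over 6.26, 554.4 and 831.5 CPM (lowest, median and highest of 8) in WWTP clams, over 3.33, 347.5 and 647.1 CPM in runoff clams, and over 6.73, 459.2 and 716.6 CPM in reference clams. Every site held at least 1 clam with under 10 CPM and several with over 500 CPM, and the 3 ranges overlapped almost entirely. GUN, an endoglucanase that cuts cellulose inside the chain, ranged over 7.72, 622.2 and 1077 CPM in WWTP clams, over 2.74, 359.1 and 685.7 CPM in runoff clams, and over 8.01, 571.1 and 821.1 CPM in reference clams. MANA, the name of a mannan-cutting enzyme in mussels, ranged over 2.31, 158.7 and 241.0 CPM in WWTP clams, over 1.64, 108.7 and 206.8 CPM in runoff clams, and over 2.76, 137.3 and 216.1 CPM in reference clams. The highest level of GUN and of MANA was in WWTP individual 46 and the lowest in runoff individual 56, as for Amy.1.2. BGAL, a beta-galactosidase that takes galactose off the ends of sugar chains and is lysosomal in mammals, ranged over 8.59, 41.5 and 52.1 CPM in WWTP clams, over 7.71, 28.0 and 44.2 CPM in runoff clams, and over 8.43, 35.6 and 50.1 CPM in reference clams. Its span between clams was far narrower than that of the other 3, with 500 reads in the clam with the fewest.

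LIPA carries the name of the acid lipase that splits cholesteryl esters and triglycerides in mammalian lysosomes. It ranged over 1.16, 106.6 and 177.3 CPM in WWTP clams, over 0.839, 100.8 and 160.8 CPM in runoff clams, and over 1.47, 125.3 and 181.6 CPM in reference clams. The lowest of these values rests on 60 reads in runoff individual 56, for which the 95% exact Poisson interval is 0.640 to 1.08 CPM and covers counting error only. CBPQ, carboxypeptidase Q, a peptidase that is secreted and also lysosomal in mammals, ranged over 23.9, 123.4 and 192.1 CPM in WWTP clams, over 26.4, 84.1 and 138.5 CPM in runoff clams, and over 21.7, 81.3 and 127.7 CPM in reference clams. In CBPQ 3 WWTP clams stood above every runoff and reference clam, and 1 WWTP clam stood among the lowest.

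**Figure D1:**
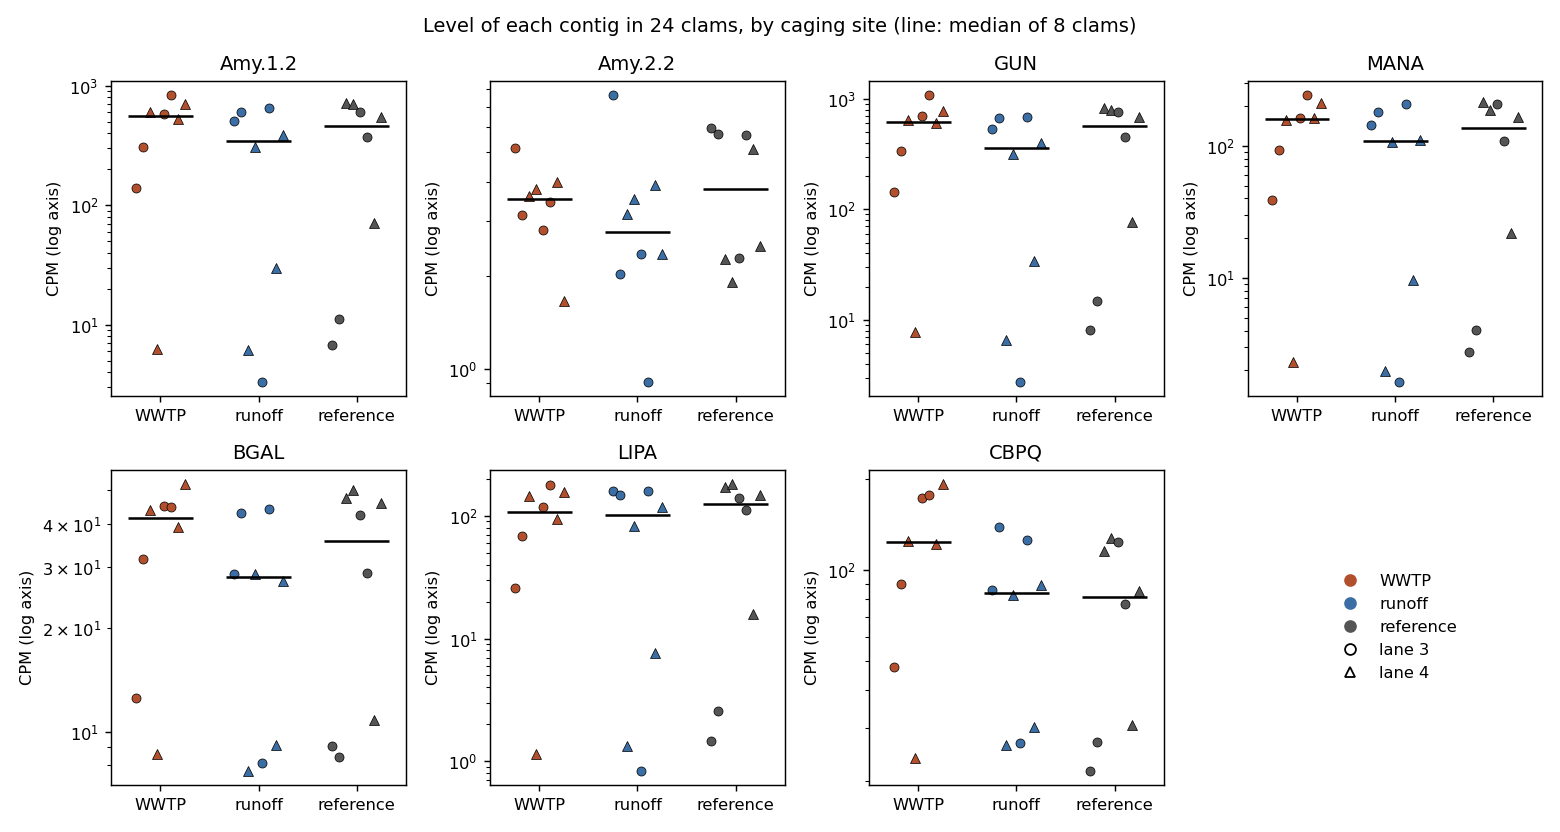
Level of each of the 7 contigs in CPM on a log axis, with 1 point per clam (circles lane 3, triangles lane 4), 8 clams for each of the sites WWTP, runoff and reference, and a line at the median. For GUN, points run from 7.72 to 1077 CPM in WWTP clams, from 2.74 to 685.7 CPM in runoff clams and from 8.01 to 821.1 CPM in reference clams; Amy.2.2 stays between 0.910 and 7.61 CPM.

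The members fell into 2 patterns by the width of their span. From the lowest to the highest of 24 clams, GUN spanned 392.8-fold, Amy.1.2 249.8-fold, LIPA 216.4-fold and MANA 147.3-fold. CBPQ spanned 8.84-fold and BGAL 6.76-fold. With libraries scaled by their totals alone GUN spanned 254.8-fold, and without runoff individual 56 it spanned 163.6-fold. Together the 6 named contigs took 0.00506% of all counts in runoff individual 56 and 0.197% in reference individual 22.

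The clams were spread over a wide range, and the place of the widest gap differed between contigs. In order of GUN the lowest were runoff individual 56 at 2.74 CPM, runoff individual 53 at 6.58 CPM, WWTP individual 41 at 7.72 CPM, reference individual 20 at 8.01 CPM and reference individual 21 at 14.9 CPM. Next came runoff individual 62 at 33.8 CPM, reference individual 30 at 77.3 CPM and WWTP individual 33 at 144.8 CPM. The other 16 lay between 319.4 and 1077 CPM. The widest step between neighbours was 1.25 on the log2 scale, from 2.74 to 6.58 CPM. The same 5 clams were the 5 lowest in each of the 6 named contigs, and the clams in places 6, 7 and 8 held exactly those places in all 6. Above that the order varied: runoff individual 49 was in place 13 for GUN and place 21 for LIPA, and reference individual 31 was in place 18 for GUN and place 11 for CBPQ.

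Along this order Amy.1.2, MANA and LIPA kept close to a fixed proportion of GUN. Over 24 clams the slope of log2 level on log2 GUN was 0.99 for Amy.1.2, 0.93 for MANA and 1.0 for LIPA. The ratio of Amy.1.2 reads to GUN reads went no lower than 0.751 and no higher than 1.21 across all clams, a span of 1.62-fold against a span of over 200-fold in each. The corresponding span was 2.67-fold for GUN over MANA and 2.05-fold for GUN over LIPA. BGAL and CBPQ behaved differently, with slopes of 0.36 each. In the 5 clams lowest in GUN, where GUN itself differed 5.42-fold, BGAL ran only from 7.71 to 9.07 CPM and CBPQ from 21.7 to 27.0 CPM. Both therefore levelled off at the low end. In the 12 clams highest in GUN, GUN differed 2.02-fold, BGAL 1.82-fold and CBPQ 2.25-fold.

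Log2 levels over the 24 clams gave Pearson r of 0.995 to 0.999 among Amy.1.2, GUN, MANA and LIPA, of 0.972 between BGAL and CBPQ, and of 0.929 to 0.954 between members of the first set and BGAL or CBPQ. These are descriptions of the property by which the names were picked. Points share a library scaling, and r within a site, for example 0.999 for Amy.1.2 with GUN at each of the 3 sites, was close to r over all of them. For Amy.1.2 with GUN r was 0.998 in lane 3 and 0.999 in lane 4. The first principal component of all contigs, which held 58.8% of the variance between libraries, correlated between -0.98 and -0.97 with each of the 6.

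**Figure D2:**
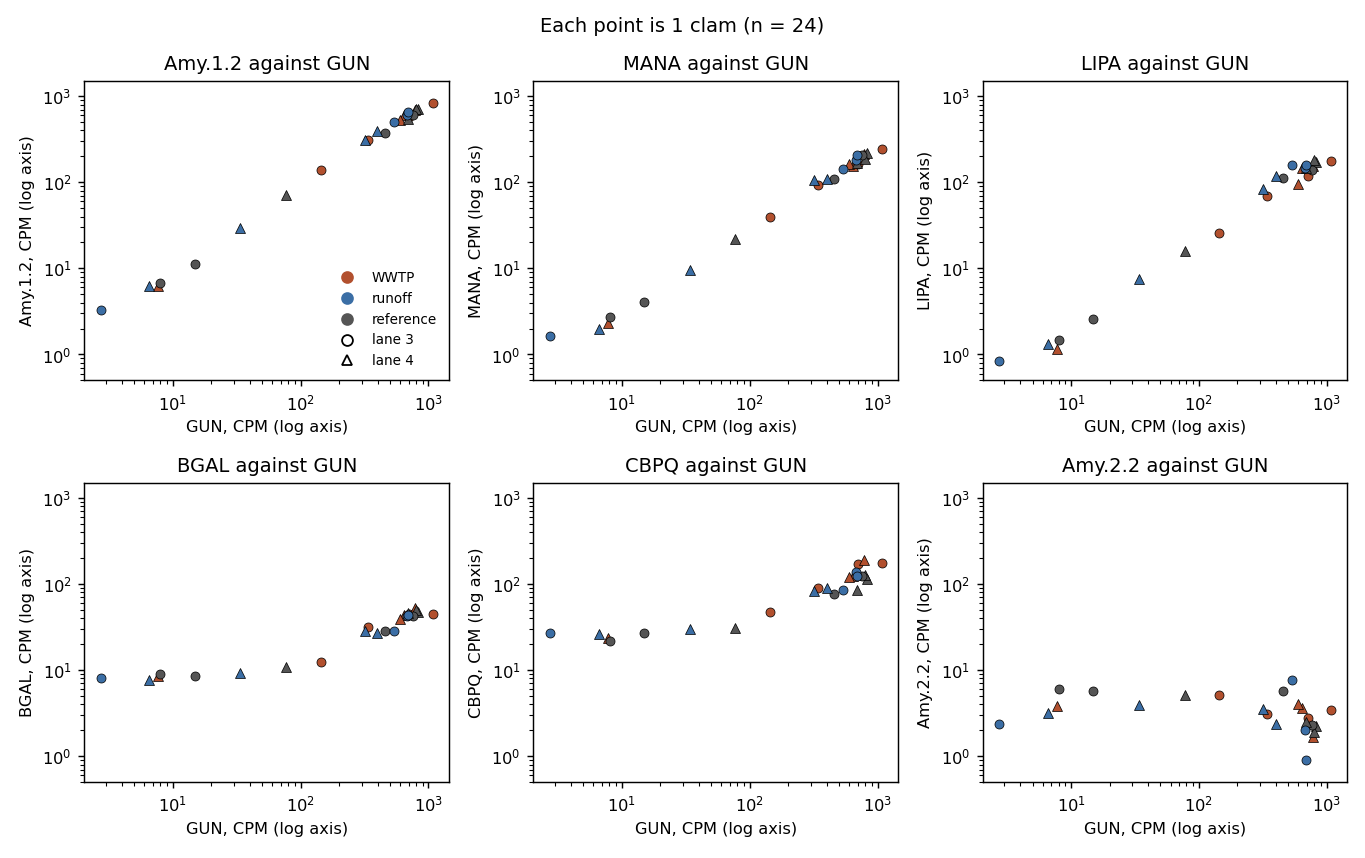
Level of 6 contigs (y axis) against GUN (x axis), both in CPM on log axes with the same y range in all panels, 1 point per clam for 24 clams coloured by site. Amy.1.2, MANA and LIPA rise with GUN over its whole range, BGAL and CBPQ are flat below about 15 CPM of GUN, at 7.71 to 9.07 and 21.7 to 27.0 CPM, and Amy.2.2 does not rise with GUN.

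The second amylase contig, Amy.2.2, did not follow its namesake. It ranged over 1.65, 3.53 and 5.14 CPM (lowest, median and highest) in WWTP clams, over 0.910, 2.76 and 7.61 CPM in runoff clams, and over 1.91, 3.81 and 5.98 CPM in reference clams. Its r with Amy.1.2 was -0.35 over 24 clams (Spearman rho -0.57), and -0.36, -0.13 and -0.80 within WWTP, runoff and reference clams. In reference clams the lowest 4 values of Amy.2.2, from 1.91 to 2.49 CPM, belonged to the 4 clams highest in Amy.1.2. The ratio of Amy.1.2 to Amy.2.2 reads was as low as 1.13 and as high as 710.8. Reads may be split between contigs of the same name, and the values of both are uncertain to that extent.

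Differences between sites were tested with edgeR's quasi-likelihood test on all 57593 contigs that passed the filter, with Benjamini-Hochberg adjustment, a measure that the choice of the 6 names did not use. None of the 7 contigs passed an adjusted p of 0.05 in WWTP against reference clams, where 1.47% of all contigs passed, and none had an unadjusted p under 0.05, where 14.5% of all contigs did. The amylase Amy.1.2 averaged 462 ± 284 CPM in WWTP clams, against 379 ± 309 CPM in reference clams (SD, n = 8 each), a log2 difference of 0.29 (SE 0.96, adjusted p from edgeR = 0.944). For GUN the means were 537 ± 352 CPM in WWTP clams, against 453 ± 366 CPM in reference clams (0.25 on the log2 scale, SE 0.966, adjusted p from edgeR = 0.953). CBPQ stood at 119 ± 61.7 CPM in WWTP clams, against 76.1 ± 44.7 CPM in reference clams (0.64 on the log2 scale, SE 0.462, adjusted p from edgeR = 0.595). The remaining members had log2 fold changes of 0.23 for MANA, 0.19 for BGAL, 0.03 for LIPA and -0.19 for Amy.2.2. Within lane 4 the sign turned for all members but CBPQ, with -0.24 for GUN and -0.15 for Amy.1.2, and CBPQ was at 0.96 within lane 3 and 0.36 within lane 4. The median over the 7 was 0.23, beside 0.00645 over all contigs.

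In runoff against reference clams none of the 7 passed either, where 0.116% of all contigs did, and none had an unadjusted p under 0.05, where 9.95% did. GUN averaged 332 ± 291 CPM in runoff clams, against 453 ± 366 CPM in reference clams (-0.45 on the log2 scale, SE 0.968, adjusted p from edgeR = 0.986). LIPA averaged 84.8 ± 72.1 CPM in runoff clams, against 96.5 ± 77.4 CPM in reference clams (-0.19 on the log2 scale, SE 0.978, adjusted p from edgeR = 1). The other log2 fold changes lay between -0.31 for BGAL and -0.01 for CBPQ. The median over the 7 was -0.28, beside 0.0117 over all contigs.

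WWTP against runoff clams gave positive log2 fold changes for all 7 contigs in the fit of all libraries, and none passed, where 1.06% of all contigs did. None had an unadjusted p under 0.05, where 13.5% of all contigs did. GUN averaged 537 ± 352 CPM in WWTP clams, against 332 ± 291 CPM in runoff clams (0.69 on the log2 scale, SE 0.97, adjusted p from edgeR = 0.857), and CBPQ 119 ± 61.7 CPM in WWTP clams, against 75.6 ± 44.1 CPM in runoff clams (0.65 on the log2 scale, SE 0.462, adjusted p from edgeR = 0.617). The other values lay between 0.10 for Amy.2.2 and 0.57 for Amy.1.2. With library totals as the scaling, Amy.2.2 was at -0.09, and within lane 3 LIPA was at -0.27. The median over the 7 was 0.50, beside -0.00657 over all contigs. The 6 named contigs move together, so these values are not separate pieces of evidence, and the 3 comparisons share libraries.

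**Figure D3:**
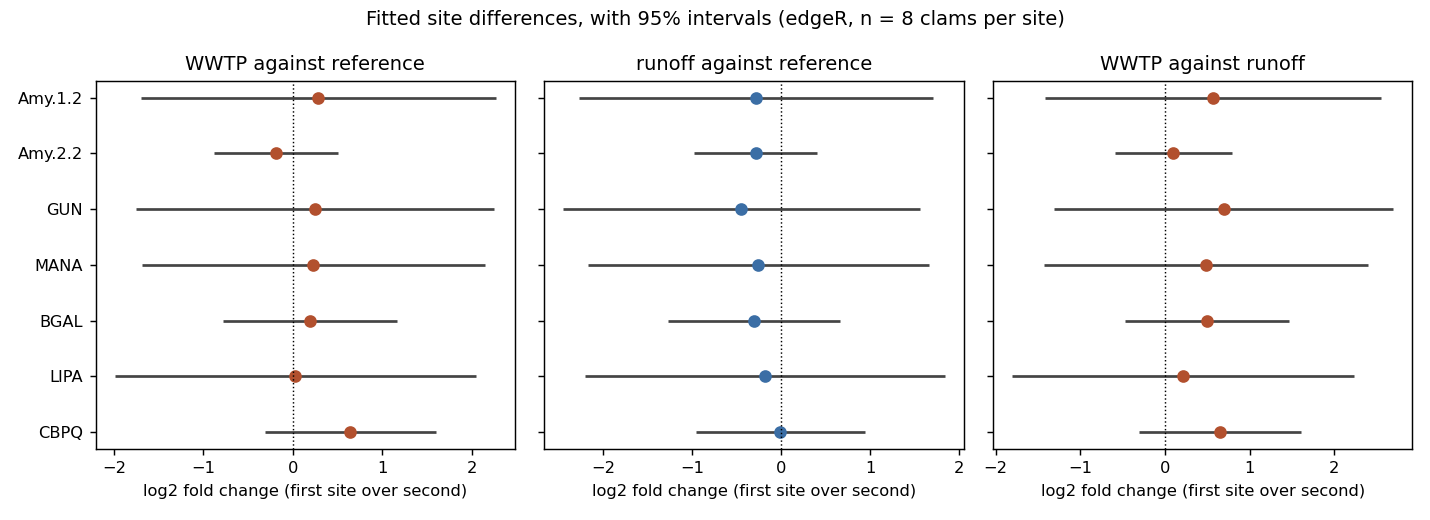
Log2 fold change between sites for each of the 7 contigs (points) with its 95% interval (lines), from edgeR with 8 clams per site; the first site named is over the second. All 21 intervals include 0, those of Amy.1.2, GUN, MANA and LIPA reach about 2 log2 units to either side, and those of BGAL, CBPQ and Amy.2.2 are narrower.

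These intervals leave room for large differences. For GUN the 95% interval of the fold change in WWTP over reference clams ran from 0.297 to 4.74, and in runoff over reference clams from 0.183 to 2.94. For CBPQ it ran from 0.804 to 3.03 in WWTP over reference clams. Of the variance in log2 level between clams, site held 5.30% for GUN, 4.47% for Amy.1.2, 2.36% for LIPA and 9.43% for CBPQ. Site holds some share even where sites do not differ, since 3 means are taken from 24 clams. DESeq2 also called none of the 7, where it called 4.04% of all contigs in WWTP against reference, 1.66% in runoff against reference and 3.48% in WWTP against runoff clams. Nor did limma-voom, which called 4.67%, 0.714% and 2.93% in the same comparisons. Neither tool gave a member an unadjusted p under 0.05. The median log2 fold change of the 7 was farther from 0 in limma-voom, at 0.44 in WWTP against reference, -0.87 in runoff against reference and 1.14 in WWTP against runoff clams. Direction differed by lane, with 4 clams per site in each, in runoff against reference clams. GUN there differed by 0.62 on the log2 scale in lane 3 (adjusted p from edgeR = 0.867). Its median in that lane was 605.8 CPM in runoff clams and 234.2 CPM in reference clams. In lane 4 the difference was -1.65 and the medians were 176.6 CPM in runoff clams and 744.5 CPM in reference clams. Within either lane 0 members had an unadjusted p under 0.05. Among the 8 clams lowest in GUN, lane 3 held runoff individual 56 and reference individuals 20 and 21. Lane 4 held runoff individuals 53 and 62 and reference individual 30. The cause of the difference between lanes was not tested.

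Levels were also set against library depth, taken as total counts. Over 24 clams GUN had Pearson r = 0.40 (permutation p = 0.053, adjusted over 3 relations p = 0.053) and Spearman rho = 0.53 (permutation p = 0.00877, adjusted p = 0.02) with the total count of the library. For CBPQ Pearson r was 0.41 (permutation p = 0.0439, adjusted p = 0.053) and rho 0.45 (permutation p = 0.0271, adjusted p = 0.0271). For Amy.2.2 Pearson r was -0.48 (permutation p = 0.018, adjusted p = 0.053) and rho -0.50 (permutation p = 0.0133, adjusted p = 0.02). Without the 2 libraries farthest from the median total, r was 0.35, 0.38 and -0.44 for GUN, CBPQ and Amy.2.2. Within lanes 3 and 4 it was 0.27 and 0.58 for GUN. The part of depth in the site comparisons was not tested.

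A fit with an added term for the first principal component, tried once the data had been seen, gave smaller standard errors, and none of the 7 passed in it either. The share of all contigs called was then 4.6% in WWTP against reference, 1.66% in runoff against reference and 5.23% in WWTP against runoff clams. In that fit 1 of the 7 had an unadjusted p under 0.05 in each comparison, a share no higher than that of all contigs, which was 20.4% in WWTP against reference, 16.2% in runoff against reference and 21.4% in WWTP against runoff clams. It was GUN in runoff against reference clams (-0.64 on the log2 scale, SE 0.244, adjusted p from edgeR = 0.184). It was CBPQ in WWTP against reference clams (0.30, SE 0.119, adjusted p from edgeR = 0.138) and in WWTP against runoff clams (0.26, SE 0.12, adjusted p from edgeR = 0.203). In WWTP against reference clams the sign of Amy.1.2, GUN, MANA, BGAL and LIPA turned in this fit. The 6 names themselves follow that component.

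Because the amylase, cellulase, mannanase and lipase kept so close to a fixed proportion, ratios of their reads within a clam spread far less than the levels. BGAL over CBPQ also had a narrow span, of 2.13-fold over 24 clams. The other pairs spanned from 26.7-fold for MANA over BGAL to 710.6-fold for Amy.2.2 over LIPA, so their tests had no such gain. Ratios within a clam do not depend on how libraries are scaled. All 21 pairs of the 7 contigs were compared between the 3 pairs of sites by two-sided exact permutation tests on log2 ratios, 63 tests in all, chosen after the levels had been seen. The 6 names were picked for running together, which favours a small spread of their ratios, but not for how the ratios differ between sites. How many pairs of other contigs would differ in the same way was not tested. Of the 63, 3 passed after adjustment over these tests and 9 had an unadjusted p under 0.05. In edgeR's tests of levels, an unadjusted p under 0.05 was reached by 14.5% of all contigs in WWTP against reference clams. The share was 9.95% in runoff against reference and 13.5% in WWTP against runoff clams. The 21 ratios come from 7 contigs, so the 63 are not separate tests.

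Reads of Amy.1.2 relative to those of GUN were higher on average in runoff than in reference clams. The ratio of Amy.1.2 to GUN reads was 0.880, 0.947 and 1.21 (lowest, median and highest of 8) in runoff clams and 0.751, 0.829 and 0.915 in reference clams. All 8 runoff clams lay above the reference median, and 2 of them lay within the reference range. The mean log2 ratio was -0.05 ± 0.143 in runoff clams and -0.27 ± 0.0926 in reference clams (SD, n = 8 each), a difference of 0.21 or 1.16-fold (exact permutation p = 0.000777, adjusted p = 0.0261). Runoff individual 56, with 238 reads of Amy.1.2 and 196 of GUN, stood at 1.21, and without it the difference was 0.17 (exact permutation p = 0.00171, adjusted p = 0.0457). Within lane 3 the difference was 0.31 (exact permutation p = 0.0286, the smallest that 4 against 4 allows) and within lane 4 it was 0.12 (exact permutation p = 0.0571).

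Reads of GUN and of Amy.1.2 relative to those of LIPA were higher on average in WWTP than in runoff clams. The ratio of GUN to LIPA reads was 4.44, 5.81 and 6.68 in WWTP clams and 3.27, 4.08 and 4.97 in runoff clams, while the reference clams, with 4.06, 4.80 and 5.78, had a median between the other 2. The mean log2 ratio was 2.48 ± 0.203 in WWTP clams and 1.99 ± 0.238 in runoff clams (SD, n = 8 each), a difference of 0.49 or 1.41-fold (exact permutation p = 0.00124, adjusted p = 0.0261). It was 0.56 within lane 3 (exact permutation p = 0.0286) and 0.43 within lane 4 (exact permutation p = 0.0857). For Amy.1.2 over LIPA, which is not separate from GUN over LIPA, the ratio was 4.15, 4.78 and 5.62 in WWTP clams and 3.15, 3.95 and 4.69 in runoff clams. That is a log2 difference of 0.35 or 1.27-fold (exact permutation p = 0.00124, adjusted p = 0.0261), with 0.36 in lane 3 (exact permutation p = 0.0286) and 0.34 in lane 4 (exact permutation p = 0.0857). In both ratios all 8 WWTP clams lay above the runoff median. These 3 results passed with any single library left out, with adjusted exact permutation p between 0.0163 and 0.049. A clam outside the 2 sites compared does not enter the unadjusted p, so leaving it out acts through the adjustment alone. None of these 3 results passed within a lane, where the adjusted exact permutation p was 0.6 in lane 3 and 0.568 in lane 4 for each. There 4 clams against 4 cannot give an unadjusted p under 0.0286.

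The ratio of BGAL to CBPQ missed the threshold. BGAL over CBPQ reads was 0.253, 0.296 and 0.360 in WWTP clams, 0.292, 0.308 and 0.352 in runoff clams, and 0.312, 0.383 and 0.539 in reference clams. The mean log2 ratio was lower than in reference clams by 0.37 in WWTP clams, at -1.73 ± 0.223 against -1.37 ± 0.239 (exact permutation p = 0.00715, adjusted p = 0.0751). For runoff against reference clams the log2 difference was -0.29 (exact permutation p = 0.00373, adjusted p = 0.0587), with -0.15 in lane 3 and -0.43 in lane 4. For WWTP against reference clams it was -0.36 in lane 3 and -0.37 in lane 4. All 8 clams of each effluent site lay below the reference median, and both comparisons use the same reference clams. Amy.1.2 over LIPA in WWTP against reference clams, with a log2 difference of 0.26, also missed it (exact permutation p = 0.00559, adjusted p = 0.0705).

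**Figure D4:**
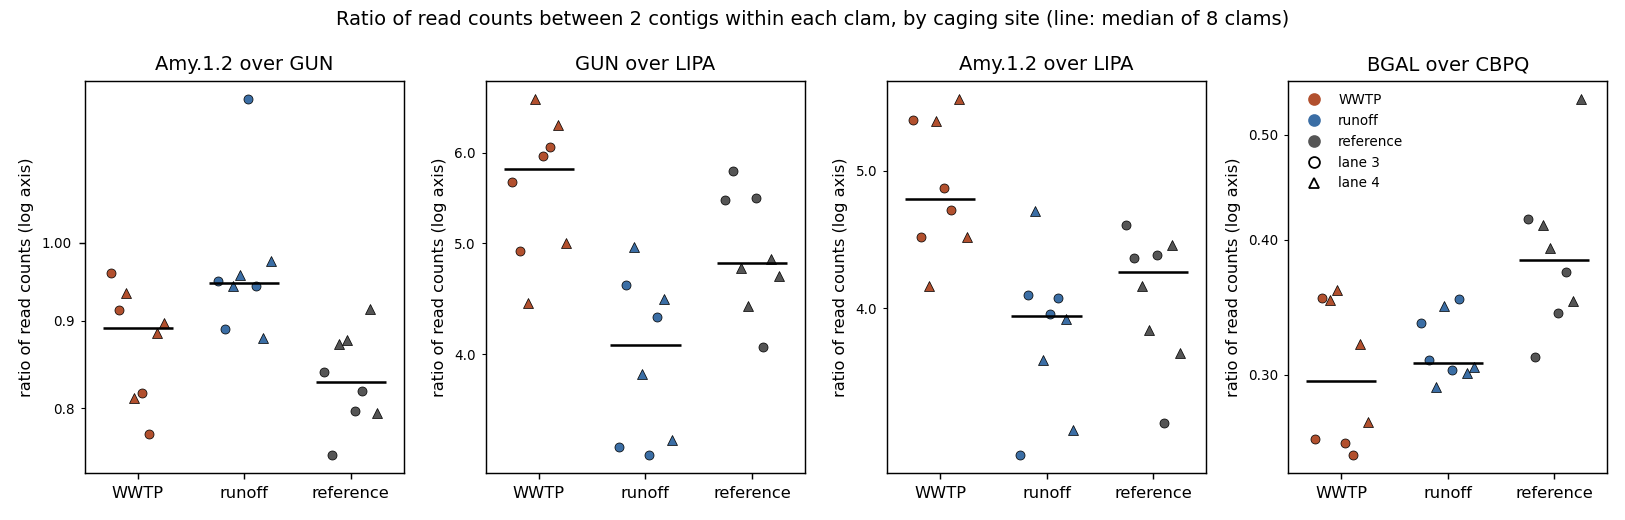
Ratio of read counts between 2 contigs within a clam, on log axes, with 1 point per clam, 8 clams for each of the sites WWTP, runoff and reference, and a line at the median. Median Amy.1.2 over GUN is 0.947 in runoff and 0.829 in reference clams, and median GUN over LIPA is 5.81 in WWTP and 4.08 in runoff clams; the right panel, BGAL over CBPQ, missed the threshold.

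Other digestive and lysosomal hydrolases were read from a list of name patterns. It matched 9 contigs besides the 7, of which 8 passed the filter on low counts, and the cathepsin S name CATS, with 133 reads in all, did not. None of the 8 passed in any comparison in edgeR, DESeq2 or limma-voom, though DESeq2 gave no adjusted p for 3 of them in runoff against reference clams. In edgeR 1 of the 8 had an unadjusted p under 0.05 in each comparison, close to the 14.5%, 9.95% and 13.5% of all contigs given above. These were the lipase name CEL in WWTP against reference clams (0.75 on the log2 scale, SE 0.339, adjusted p from edgeR = 0.292) and the cathepsin L name CATL in both comparisons with runoff clams. CATL had a log2 fold change of 0.23 in runoff against reference clams (SE 0.0982, adjusted p from edgeR = 0.419) and of -0.25 in WWTP against runoff clams (SE 0.0983, adjusted p from edgeR = 0.226). The median log2 fold change of the 8 was 0.10 in WWTP against reference clams, 0.21 in runoff against reference clams and -0.17 in WWTP against runoff clams, where that of all contigs was 0.00645, 0.0117 and -0.00657.

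These other hydrolases varied between clams in several ways. As a description, each was correlated with the mean standardized level of the 6 named contigs over 24 clams. Among the 8 tested, the highest r was 0.83 for the cathepsin V name CTSV, a lysosomal cysteine protease, at 0.531 to 6.31 CPM. Hydrolases whose names the patterns do not match, such as the lysozyme LYS.4.5 at r = 0.995, are not covered by this ranking. CEL had 0.29, the chymotrypsin name CTRB -0.13 and CATL -0.22. CATL varied only 1.98-fold between clams, at 7.94 to 15.7 CPM, over the same libraries in which GUN varied 392.8-fold. The chitinase name CHIA, an enzyme that cuts chitin, had r = -0.22 and a span of 2.63-fold. The lowest r were -0.78 for ctrl.L, named for a chymotrypsin-like protease, at 2.69 to 577.3 CPM, -0.73 for the lactase-like name Lctl and -0.73 for the tryptase name TRYM, at 1.59 to 286.6 CPM. TRYM was below 3 CPM in most clams and highest in runoff individual 56, the clam lowest in GUN.

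Contigs with a symbol were ranked by how closely their levels ran with the named enzymes, and the 8 closest are named here without a test of what they share. Over 24 clams and 1261 contigs with a symbol and at least 2 CPM on average, r with the mean standardized level of the 6 was highest for c1ql4l at 0.999, named for a C1q-domain protein and at 1.52 to 95.03 CPM, and for TM11L at 0.997. At 0.994 to 0.996 came Fcer2.2.3, CLEC17A.1.3 and Clec17a, which are names of C-type lectins, and the lysozyme LYS.4.5, which cuts bacterial cell walls. In the same range were cbln11, named for a cerebellin with a C1q domain, and the cadherin name fat4.2.3. The spans of the 8 ran from 62.3-fold for c1ql4l to 230.8-fold for Clec17a. Of these 1261 contigs 38, or 3.01%, had r above 0.99 and 154, or 12.2%, had r above 0.9. Of all 57593 contigs 3588, or 6.23%, had r above 0.9. That set has no floor of 2 CPM and needs no symbol, so its share is not on a par with that of the 1261.

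Few transcripts ran in the opposite direction as tightly. Only 45 contigs, 0.0781% of all, had r below -0.9, and COL12, a name used for collectin-12, a scavenger receptor with a C-type lectin domain, was the only one of the 1261 among them (r = -0.94, 19.4 to 82.4 CPM). Next were SBP1A, a selenium-binding protein name (r = -0.899, 435.3 to 5255 CPM), Svep1.1.2_bis (-0.89), the apoptosis inhibitor name XIAP.4.5 (-0.88), the secreted kinase name FA20C.1.2 (-0.87) and the ubiquitin ligase name HERC2.1.2 (-0.86). Svep1.1.2_bis spanned 6.03-fold between clams.

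**Figure D5:**
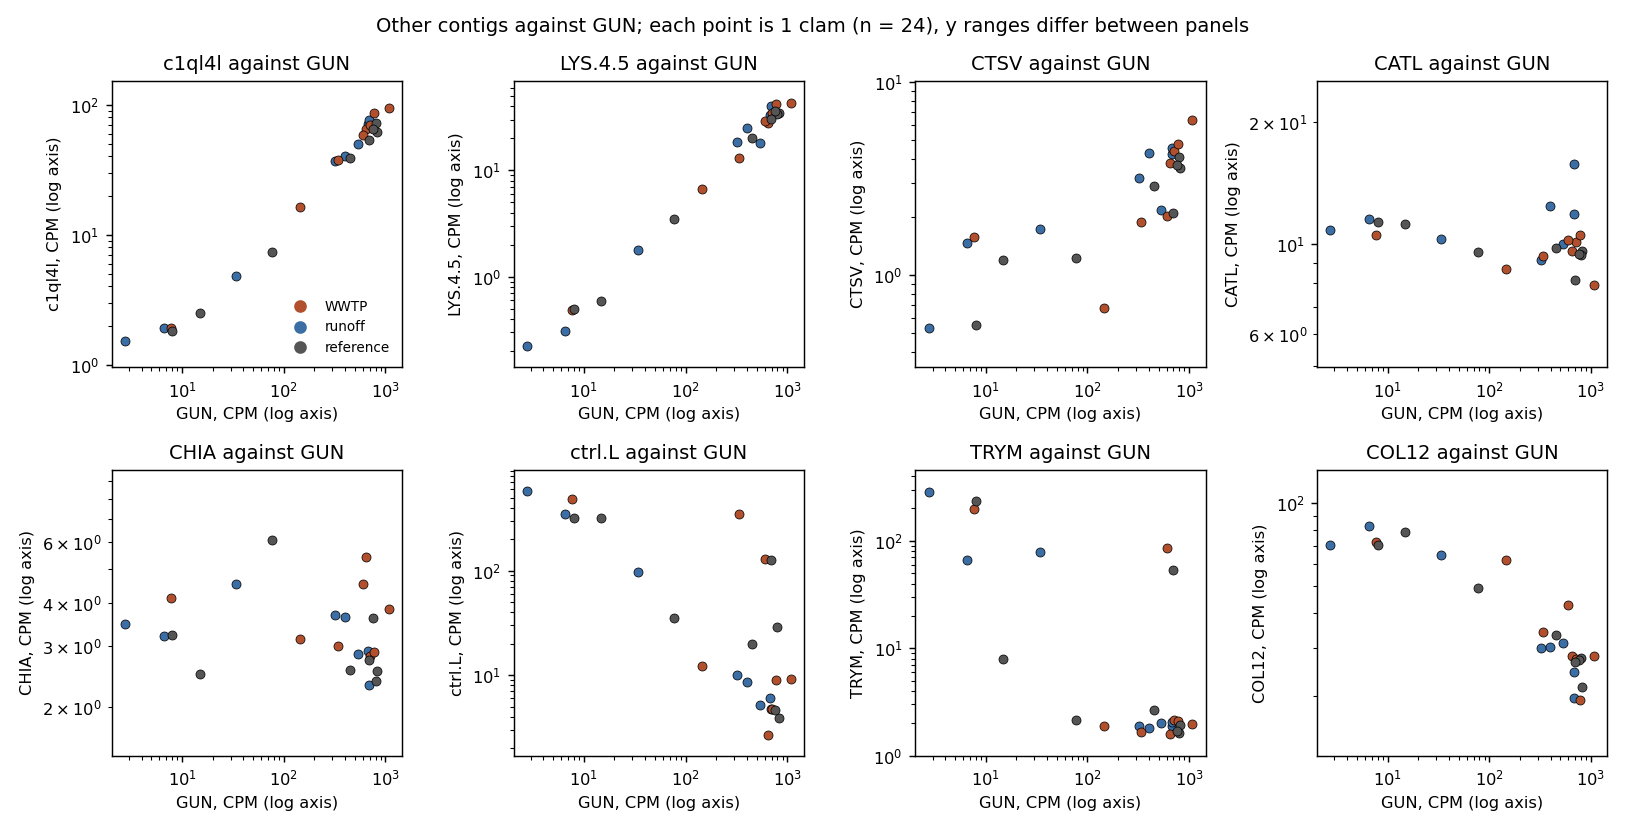
Level of 8 other contigs (y axis) against GUN (x axis), both in CPM on log axes whose y range differs between panels, 1 point per clam for 24 clams coloured by site. c1ql4l and LYS.4.5 rise with GUN, CTSV rises with more scatter, CATL (7.94 to 15.7 CPM) and CHIA stay within a narrow band, and ctrl.L, TRYM and COL12 have their highest point among the 5 clams lowest in GUN.

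Muscle and egg yolk contigs ran mostly opposite to the enzymes between clams. Of 13 muscle contigs (myosins, tropomyosins and a troponin C) 11 had r below -0.5 with the mean standardized level of the 6, and none had r above 0.5, where 20.9% of all contigs had r below -0.5. The 13 carry only the names MLR, MYS, TPM and TNNC2, so they are not 13 separate observations. Their summed level was 295.4, 945.7 and 13536 CPM (lowest, median and highest) in WWTP clams, 621.8, 899.4 and 4862 CPM in runoff clams, and 547.9, 1063 and 3681 CPM in reference clams. Both contigs of vitellogenin, the egg yolk precursor, had r of -0.57 and -0.58, with a summed level of 342.1, 4084 and 15784 CPM in WWTP clams, 132.9, 2827 and 8740 CPM in runoff clams, and 1182, 5008 and 9046 CPM in reference clams. Of 4 cilia names 1 had r below -0.5 and the other 3 had r of -0.49, -0.06 and -0.01, at a summed level of 44.3 to 89.5 CPM in WWTP clams, 34.2 to 85.4 CPM in runoff clams and 38.2 to 102.1 CPM in reference clams. Perlucin, named for a shell protein, ran with the enzymes (r = 0.98) and was at 0 counts in WWTP individual 41, which allows up to 0.0456 CPM. No other marker was at 0 in any clam. None of the 20 passed between sites in edgeR without added terms, where 1 of the 20 had an unadjusted p under 0.05 in each comparison, a smaller share than that of all contigs. DYHC, placed under cilia by its name alone, passed in DESeq2, in limma-voom and in edgeR with the first principal component as a term. It did so in WWTP against reference and in WWTP against runoff clams. The part of muscle, egg or other tissue in the differences between clams was not tested.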

How the data were processed

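The authors' deposited table holds 1 column of raw counts per library, made per assembled contig for 24 digestive gland libraries (TruSeq RNA v2, per the labels' protocols). The submitters' processing notes name BWA 0.7.12 and SAMtools 1.1. How contigs were assembled, counted and named, and whether strand was used, is not stated in the sources used here. Contigs were kept by filterByExpr by site (minimum count 10), which removed 698 with 0.00718% of counts. TMM scaling was followed by edgeR 4.0.16 (R 4.3.3), with robust quasi-likelihood F-tests on the 3 sites together and Benjamini-Hochberg adjustment over the contigs tested. Standard errors are the log2 fold change over the root of the F statistic. Library totals of 40.4 M to 97.7 M set the counting error, and the smallest count of the 6 names was 60. DESeq2 1.42.0 and limma 3.58.1 (voom with sample weights) were alternatives, as were other scalings and filters, lane, single lanes, a fit of 2 sites and each library left out. Correlations used log2 CPM with a prior count of 2. For the ratio tests 0.5 was added to both counts.

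Named are all members, the 8 contigs with a symbol of highest and the 6 of lowest r with the mean standardized level of the 6 names (at least 2 CPM), and the list of other hydrolases. Among marker names, 3 that matched a pattern but belong to other genes were set aside. The members and lists were chosen with earlier results of these data known. Scripts were tested on simulated data. No library was a copy, since the highest correlation between any pair was 0.977. Replicate numbers follow accession order and pair no clams.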

Additional observations from a re-analysis of the deposited data

Results flagged for a closer look

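Of 33 groups of 8 clams examined, 5 held a clam whose gap to its nearest neighbour took more than 0.526 of the group's range, where chance flags about 1 in 20 groups. In 4 of them the clam was WWTP individual 41, which lay below the other WWTP clams in Amy.1.2 (gap 0.634 of the range of log2 CPM), GUN (0.593), MANA (0.608) and LIPA (0.614). These contigs vary together, so the 4 gaps are 1 observation. The fifth was the ratio of Amy.1.2 to GUN reads in runoff individual 56, which stood above the other runoff clams (gap 0.678 of the range of log2 ratios).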

How the results depend on the processing

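No paired analysis was possible because the numbering of clams follows accession order and the clams of different sites share no animal. Of the 7 contigs none was called under any of 36 alternatives per comparison. The 21 fold changes had 756 alternatives in all, of which 710 kept the sign, 46 turned it and 0 passed the threshold, with a lowest adjusted p of 0.138. Each comparison counts all 24 libraries left out in turn. Those of the site outside it reach its fold changes only through the shared scaling and spread, so the 756 are not separate checks. The cause of the turns was not tested.

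In WWTP against reference clams the turned log2 fold changes were -0.12 for LIPA with library totals as the scaling, and 0.016 for Amy.2.2 in limma-voom. Within lane 4 they were -0.15 for Amy.1.2, 0.14 for Amy.2.2, -0.24 for GUN, -0.15 for MANA, -0.11 for BGAL and -0.38 for LIPA. With the first principal component as a term they were -0.096 for Amy.1.2, -0.19 for GUN, -0.16 for MANA, -0.073 for BGAL and -0.43 for LIPA. In runoff against reference clams within lane 3 they were 0.82 for Amy.1.2, 0.62 for GUN, 0.73 for MANA, 0.49 for BGAL, 0.88 for LIPA and 0.59 for CBPQ, and within lane 4 0.14 for Amy.2.2. CBPQ there was at 0.019 with library totals and 0.041 with the component as a term. In WWTP against runoff clams Amy.2.2 was at -0.087 with library totals and -0.00244 within lane 4, MANA at -0.0018 and LIPA at -0.27 within lane 3, and LIPA at -0.090 with the component. With 1 library left out, LIPA ran from -0.16 to 0.22 in WWTP against reference clams and from -0.38 to 0.0091 in runoff against reference clams, CBPQ from -0.19 to 0.14 in runoff against reference clams, and Amy.2.2 from -0.044 to 0.41 in WWTP against runoff clams.

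The count of all contigs called moved far more. In WWTP against reference clams 846 became 522 with upper-quartile scaling, 165 with library totals, 516 in a fit of these 2 sites, 0 and 1 within lanes 3 and 4, 2328 in DESeq2, 2687 in limma-voom, 2648 with the component, and 206 (without WWTP individual 46) to 1342 (without reference individual 25) with 1 library left out. In runoff against reference clams 67 became 25 with upper-quartile scaling, 0 with library totals (4184 at an unadjusted p under 0.05), 11 in a fit of these 2 sites, 0 within lane 3 and 0 within lane 4, 825 in DESeq2, 411 in limma-voom, 957 with the component, and 0 (without runoff individual 50) to 198 (without runoff individual 49). In WWTP against runoff clams 609 became 115 in a fit of these 2 sites, 0 within lane 3 and 0 within lane 4, 1968 in DESeq2, 1685 in limma-voom, 3014 with the component, and 112 (without WWTP individual 38) to 1010 (without WWTP individual 41). Where a lane gave 0, 3975, 6710 and 4410 contigs in lane 3 and 6247 and 4362 in lane 4 had an unadjusted p under 0.05 by edgeR. With library totals as the scaling the log2 fold change of all contigs had a median of -0.16 in WWTP against reference, 0.04 in runoff against reference and -0.20 in WWTP against runoff clams.

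The ratio tests called 0 of 63 within lane 3 and 0 within lane 4, where 4 clams face 4, and 3 to 5 with 1 library left out, with 5 called without WWTP individual 38 and 5 without reference individual 21. Those added were Amy.1.2 over LIPA (WWTP against reference) and BGAL over CBPQ. The correlation of a member with the mean of the other named members was 0.979 for GUN, 0.981 for MANA and 0.932 for LIPA by Spearman's rho, where Pearson's r was 0.996, 0.998 and 0.993, and 0.999 for GUN among reference clams. Without runoff individual 56 the span of Amy.1.2 was 133.9-fold. The depth limits the clams with fewest reads, and the spread between clams limits every comparison of levels between sites.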
